A study of Mus musculus with 12 samples.

Results

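The 10 genes Reln, Dab1, Vldlr, Lrp8, Astn1, Astn2, Dcx, Dclk1, Pafah1b1 and Cdk5r1, which act in reelin signalling and in the migration of neurons, were followed in the mouse cerebellum at postnatal day 14. They were taken by symbol from the 55385 listed genes, each symbol matched 1 identifier, and all 10 were among the 18091 genes with enough counts to be tested. Polyadenylated RNA of whole cerebellum had been sequenced from 3 wild-type (WT) and 3 EED-/- libraries, all on the C57BL/6 strain. The EED-/- animals are conditional knockouts of Eed, a core subunit of the Polycomb repressive complex that places H3K27me3. No Cre driver, deleted exon or pooling of animals is given in the sources used here. Nor is it stated that each library is a different animal, and p-values therefore speak only of the spread between these 6 libraries. A further 6 ChIP-seq samples were not analysed here. Eed itself stood at 20.1, 26.6 and 23.5 CPM in WT and 11.6, 9.31 and 11.3 CPM in EED-/- libraries, 2.18-fold lower (edgeR adjusted p = 0.0015).

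Reelin is a large secreted glycoprotein. It binds the lipoprotein receptors Vldlr and Lrp8 (also called ApoER2), which leads Src-family kinases to phosphorylate the intracellular adaptor Dab1. In the cerebellum granule cells and their precursors are a main source of reelin and Purkinje cells a main responder, and mice without reelin, without Dab1 or without both receptors have misplaced Purkinje cells and ataxia. The other members act on the moving neuron itself. Astrotactins serve the contact of granule neurons with the Bergmann glial fibres along which they migrate, Dcx and Dclk1 bind microtubules, Pafah1b1 (LIS1) regulates the motor cytoplasmic dynein, and Cdk5r1 (p35) activates the kinase Cdk5.

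Values are CPM, the estimated count of a gene relative to the TMM-scaled library total, given for replicates 1, 2 and 3 in that order, with mean ± SD over n = 3 libraries per genotype. A gene is called where edgeR's quasi-likelihood test gave an adjusted p under 0.05, adjusted over all tested genes, and intervals are 95% intervals of the log2 fold change of EED-/- over WT. Each of the 10 genes had between 1255 and 13910 estimated counts in every library, out of library totals of 19621814 to 20366173. Among them 4 were called lower and 0 higher, against 14.1% of all tested genes called lower, 11.7% called higher and 25.8% called in either direction. Over all tested genes 2125 were called higher and 2544 lower, which turned to 2828 higher and 1786 lower when scaled by the upper quartile and to 2641 and 1865 by plain library size. Before adjustment 6 of the 10 had a p under 0.05, and all 6 were lower, beside 3716 lower and 3176 higher of the 18091 tested genes. DESeq2 and limma-voom each called 4 lower and 0 higher as well. The 4 called genes were the ligand Reln, the receptor Lrp8, the astrotactin Astn2 and the doublecortin Dcx, and each stayed called in all 14 alternative settings. CPM values of the genotypes did not overlap for 6 of the 10 genes, against 43.9% of all tested genes.

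**Figure D1:**
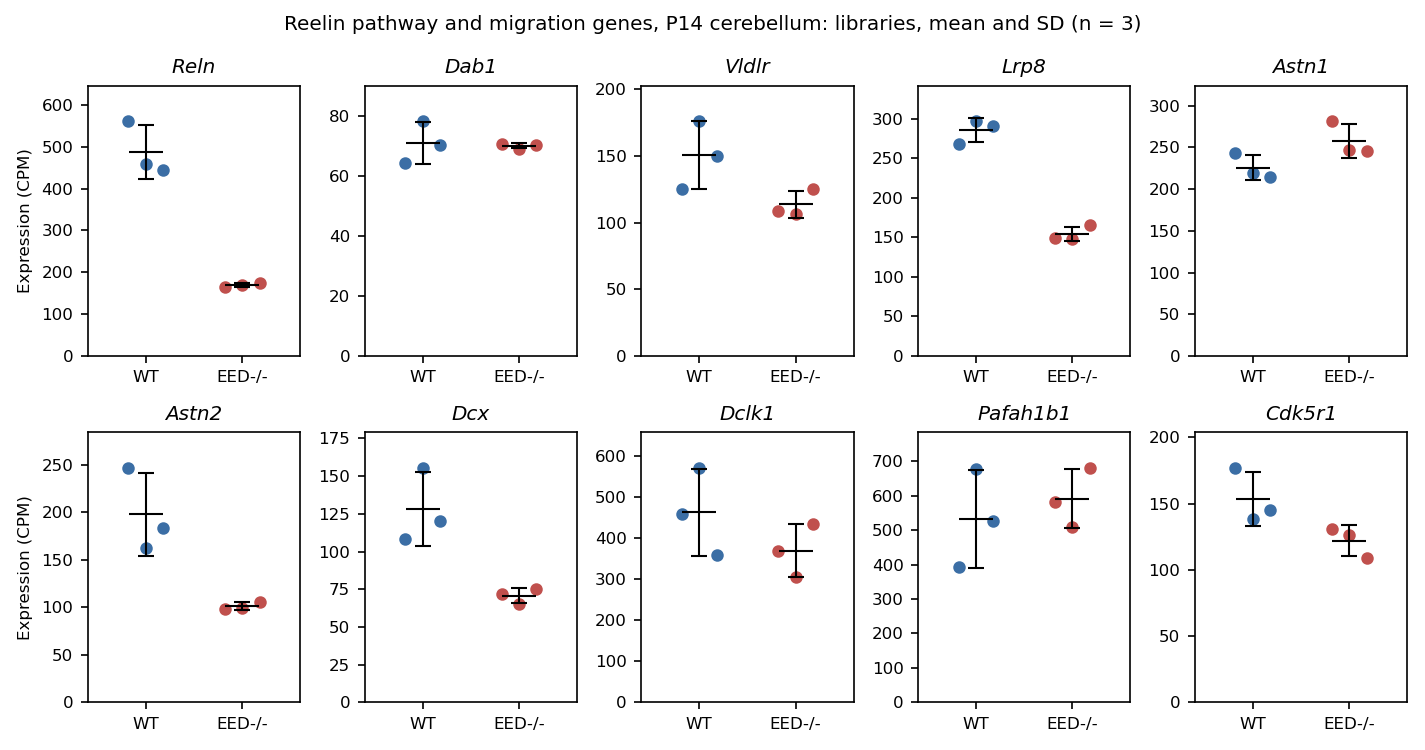
Expression in CPM (y axis, from 0) of the 10 genes in each WT and EED-/- library (points), with mean and SD (bars, n = 3). Reln, Lrp8, Astn2 and Dcx lie lower in every EED-/- library than in any WT library, while the points of Dab1, Vldlr, Dclk1 and Pafah1b1 overlap.

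The promoters of the 4 called genes are shown because these genes moved in one direction while differing widely in the sequence before their starts. The window taken was the 250 bases upstream of the RefSeq start (build GRCm38.p6), and of it the stretch that holds no GENCODE exon of the gene is printed, on the gene's strand and 5′ to 3′. The RefSeq start of Lrp8 lies 624 bases inside its GENCODE gene and that of Pafah1b1 812 bases, so both windows lie within the annotated gene. Capitals mark every CG dinucleotide, the site of CpG methylation.

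Reln (chr5:22344706-22344955, minus strand): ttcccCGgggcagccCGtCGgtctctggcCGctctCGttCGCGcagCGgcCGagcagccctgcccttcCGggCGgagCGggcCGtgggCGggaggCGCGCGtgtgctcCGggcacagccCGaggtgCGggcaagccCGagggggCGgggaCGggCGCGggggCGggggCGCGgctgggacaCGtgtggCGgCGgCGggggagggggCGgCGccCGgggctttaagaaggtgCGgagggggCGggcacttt
Lrp8 (chr4:107802635-107802841, plus strand): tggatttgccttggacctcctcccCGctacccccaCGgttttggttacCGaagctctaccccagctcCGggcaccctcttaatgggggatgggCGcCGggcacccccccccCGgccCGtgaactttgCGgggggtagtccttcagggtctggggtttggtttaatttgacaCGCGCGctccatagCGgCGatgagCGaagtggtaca
Astn2 (chr4:66404612-66404733, minus strand): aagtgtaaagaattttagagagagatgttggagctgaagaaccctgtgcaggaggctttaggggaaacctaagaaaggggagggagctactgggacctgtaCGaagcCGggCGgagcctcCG
Dcx (chrX:143933312-143933469, minus strand): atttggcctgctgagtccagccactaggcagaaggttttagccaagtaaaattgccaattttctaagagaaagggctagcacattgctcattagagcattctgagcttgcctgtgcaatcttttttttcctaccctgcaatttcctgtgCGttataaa

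The whole Reln window, all of it printed, held 37 CG dinucleotides, a number reached by 2.2% of the 32851 RefSeq promoter windows of the same length. The whole windows of Lrp8 and Astn2 held 18 and 19 (15 and 4 in the printed stretch), reached by 21.7% and 19.7% of windows. That of Dcx held 3 (1 in the printed stretch), reached by 71%. The median over all windows was 6 CG. Of the members, 9 had a RefSeq entry; where a gene had several starts the one nearest to the GENCODE gene start was used. Among those not called, Pafah1b1 held 22 CG, Dab1 10, Vldlr 5, Dclk1 4 and Astn1 2. Windows above and below the median thus occurred in both sets. The upper quartile over all windows was 16 CG, and whether the sets differ was not tested. Dab1 and Vldlr each have a further RefSeq start whose window is richer in CG, with 40 and 18. The letters CANNTG, the E-box core bound by basic helix-loop-helix factors (it reads the same on both strands), were present in 4 of the 9 member windows and in 66.2% of all windows. Among the called genes only the Reln window held it at the start used. Windows of further RefSeq starts of Lrp8 held 4 and 2 of these sites.

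The ligand showed the greatest difference of the 10. Reln (chromosome 5, 21884454 to 22344702, minus strand, GRCm38) was at 561, 458 and 444 CPM in WT and 165, 170 and 173 CPM in EED-/- libraries. Every WT library was above every EED-/- library, and the EED-/- libraries lay close together (169 ± 4.06 against 488 ± 63.9 CPM). The log2 fold change was -1.53 (SE 0.124, interval -1.81 to -1.24, adjusted p = 0.000134), a 2.88-fold lower level, and 2.19% of all tested genes had a lower fold change. An antisense transcript, Gm10475, shares 246 exonic bases, or 1.04% of the annotated exon bases of Reln. The sources used here do not state whether strand was used in counting.

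Of the reelin receptors Lrp8 was called and Vldlr was not. Lrp8 (chromosome 4, 107802261 to 107876840) was at 268, 297 and 291 CPM in WT and 149, 148 and 165 CPM in EED-/- libraries, with no overlap. It was 1.85-fold lower (log2 fold change -0.89, SE 0.106, adjusted p = 0.000843). Vldlr (chromosome 19, 27216484 to 27254231) was at 125, 176 and 150 CPM in WT and 109, 106 and 126 CPM in EED-/- libraries. WT replicate 1 fell within the EED-/- range, and Vldlr was not called (log2 fold change -0.41, interval -0.74 to -0.08, adjusted p = 0.0725). Without WT replicate 1 it was called (log2 fold change -0.47, adjusted p = 0.0275); over the 14 alternatives its adjusted p ran from 0.0275 to 0.222.

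The adaptor Dab1 (chromosome 4, 103619359 to 104744844), which passes the signal on inside the cell, was at 64.4, 78.2 and 70.1 CPM in WT and 70.7, 69.1 and 70.4 CPM in EED-/- libraries. The EED-/- values all lay inside the WT range. Its log2 fold change was -0.02 with an interval of -0.27 to 0.23 (adjusted p = 0.928), and its sign changed in 8 of the 14 alternatives.

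Of the astrotactins Astn2 was called lower and Astn1 was not called. Astn2 (chromosome 4, 65380803 to 66404611, minus strand), which controls how much Astn1 stands on the cell surface, was at 247, 162 and 184 CPM in WT and 98.1, 99 and 106 CPM in EED-/- libraries. All WT values exceeded all EED-/- values, although WT replicate 1 stood well above the other two. Astn2 was 1.96-fold lower (log2 fold change -0.97, SE 0.159, adjusted p = 0.00341). Astn1 (chromosome 1, 158362273 to 158691781), the membrane protein of the neuron that contacts the glial fibre, was at 244, 219 and 215 CPM in WT and 281, 247 and 246 CPM in EED-/- libraries. Its lowest EED-/- library was just above its highest WT library, and it was not called (log2 fold change 0.19, interval -0.06 to 0.45, adjusted p = 0.244).

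Of the microtubule and motor genes 1 of 3 was called. Dcx (X chromosome, 143855842 to 143933311, minus strand), a microtubule-binding protein of young migrating neurons, was at 108, 156 and 121 CPM in WT and 71.6, 65.5 and 75 CPM in EED-/- libraries. No library overlapped, and Dcx was 1.81-fold lower (log2 fold change -0.86, SE 0.149, adjusted p = 0.00428). Its relative Dclk1 (chromosome 3, 55242364 to 55539068), which joins the same microtubule-binding domains to a kinase, was at 458, 571 and 358 CPM in WT and 368, 306 and 434 CPM in EED-/- libraries. These ranges overlapped and Dclk1 was not called (log2 fold change -0.32, interval -0.76 to 0.11, adjusted p = 0.251). Dclk1 has 15 annotated transcripts, and the gene is known to make forms without the kinase part and forms without the doublecortin domains, which counts per gene do not separate.

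Pafah1b1 (chromosome 11, 74673949 to 74724670, minus strand), the dynein regulator LIS1 whose loss of 1 copy causes lissencephaly in humans, was at 392, 677 and 527 CPM in WT and 581, 510 and 681 CPM in EED-/- libraries, 2 overlapping ranges. Its log2 fold change was 0.15 with an interval of -0.31 to 0.61 (adjusted p = 0.625). Cdk5r1 (chromosome 11, 80477023 to 80481184), the p35 activator of Cdk5, was at 177, 139 and 145 CPM in WT and 131, 126 and 109 CPM in EED-/- libraries. All EED-/- values were below all WT values, but the difference was not called (log2 fold change -0.33, interval -0.63 to -0.03, adjusted p = 0.103). In the authors' deposited table, made with DESeq2, the same 4 of the 10 genes had an adjusted p under 0.05, with log2 fold changes of -1.51 for Reln, -0.86 for Lrp8, -0.95 for Astn2 and -0.83 for Dcx.

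**Figure D2:**
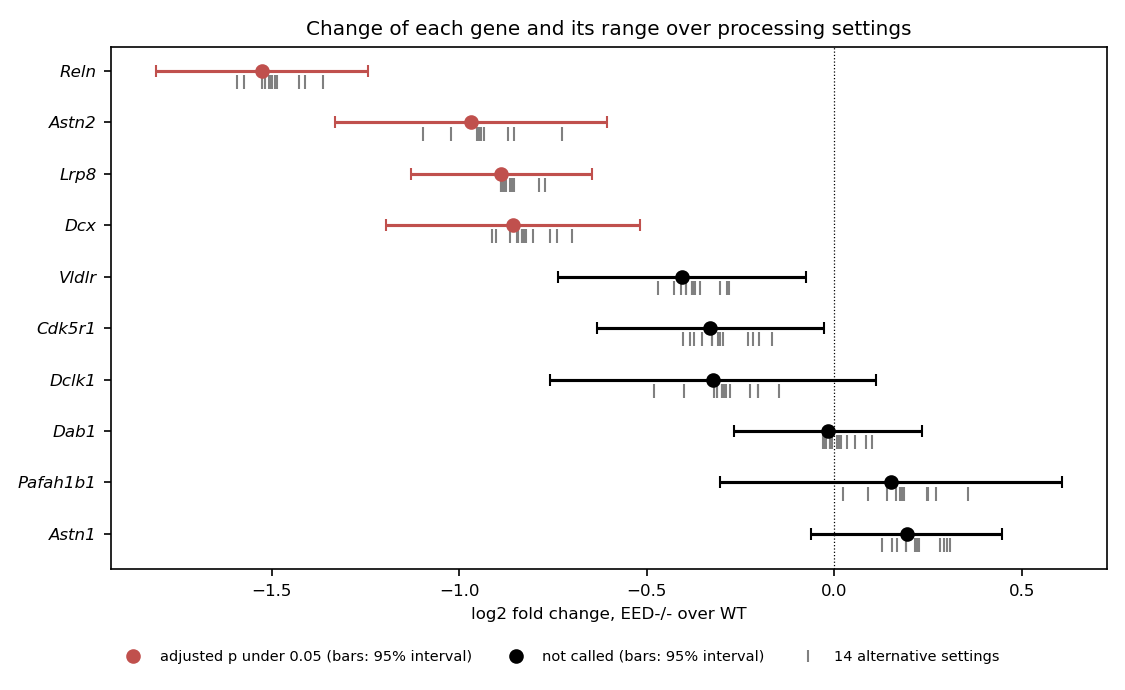
Log2 fold change of EED-/- over WT (x axis) for each of the 10 genes, with 95% intervals (points and bars, red where adjusted p is under 0.05), and the values under 14 alternative settings (grey ticks). The ticks of Reln, Lrp8, Astn2 and Dcx stay below -0.69, and those of Dab1 lie on both sides of 0.

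Ratios between related members were computed within each library, where differences in depth and scaling cancel. The pairs were chosen with the changes above known, so they describe these libraries. The log2 ratio of Lrp8 to Vldlr was 1.1, 0.753 and 0.953 in WT and 0.455, 0.478 and 0.394 in EED-/- libraries, a shift of -0.49. Lrp8 counts thus exceeded Vldlr counts in every library, by less in every EED-/- library. For Astn2 to Astn1 the log2 ratio was 0.0187, -0.434 and -0.226 in WT and -1.52, -1.32 and -1.21 in EED-/- libraries, a shift of -1.14. The ratio of Dcx to Dclk1 shifted by -0.53 on the log2 scale, from -1.84 ± 0.256 to -2.37 ± 0.154. That of ligand to adaptor, Reln to Dab1, shifted by -1.51, from 2.78 ± 0.303 to 1.27 ± 0.0422. None of the 4 ratios overlapped between genotypes, and for each the exact two-sided permutation p was 0.1 (also 0.1 after Benjamini-Hochberg adjustment over the 4), the smallest that 3 against 3 libraries allow. Each pair set a called gene over 1 that was not called, so this p is no test separate from those of the genes.

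**Figure D3:**
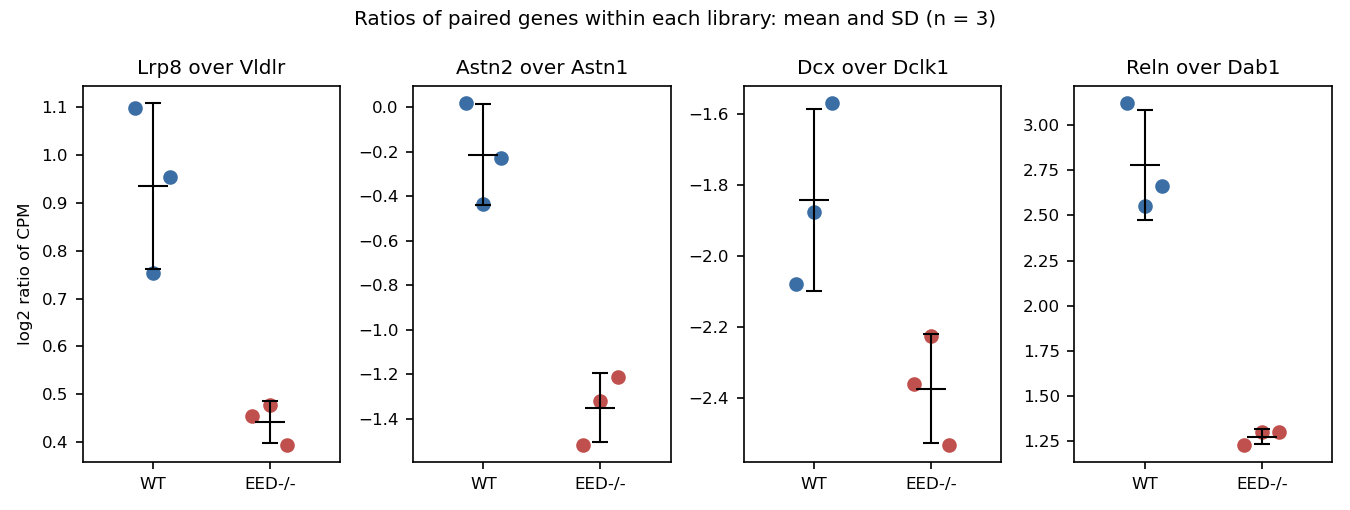
Log2 ratio of CPM (y axis, not starting at 0) of 4 pairs of genes within each WT and EED-/- library (points), with mean and SD (bars, n = 3). In each of the 4 panels the EED-/- libraries lie below the WT libraries, most widely for Reln over Dab1, where the means are 2.78 and 1.27.

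To compare levels between genes, CPM was divided by the length of the longest annotated transcript in kilobases (RPKM). In WT cerebellum Pafah1b1 (62.1 ± 16.6 RPKM) and Dclk1 (58 ± 13.4) were highest. Lrp8 (43 ± 2.31), Reln (41.7 ± 5.46), Astn2 (39.8 ± 8.85), Cdk5r1 (36.9 ± 4.96) and Astn1 (31.2 ± 2.13) followed, and neighbours among these 5 overlapped, while the lowest Dclk1 library (45) was just above the highest Lrp8 library (44.8). Vldlr (18.9 ± 3.2), Dcx (14.1 ± 2.7) and Dab1 (13.4 ± 1.32) were lowest, and the highest Vldlr library was below the lowest Astn1 library. In EED-/- cerebellum Reln was at 14.5 ± 0.347 RPKM, within the range of Vldlr at 14.3 ± 1.31, and moved from rank 4 to rank 7 of 10. Dcx, at 7.79 ± 0.532 RPKM, was below Dab1 at 13.3 ± 0.162 with no overlap. The order depends on the length used: over the union of all annotated exons Reln was at 20.6 RPKM in WT and 7.14 RPKM in EED-/- libraries, ranks 7 and 9. By that length Dclk1 was at rank 4 in WT, behind Pafah1b1, Astn2 and Cdk5r1, and 14 of the 20 group means moved by more than 1 SD.

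**Figure D4:**
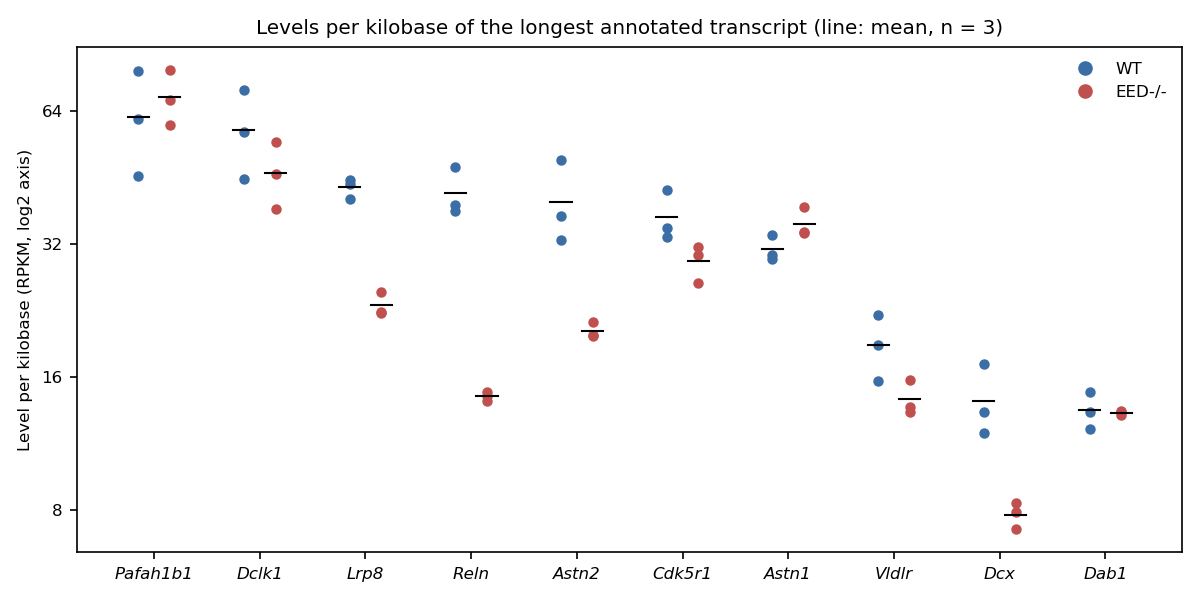
Level per kilobase of the longest annotated transcript (RPKM, log2 y axis) of the 10 genes in each WT and EED-/- library (points) with group means (lines, n = 3), ordered by the WT mean. The mean of Reln lies at 41.7 RPKM in WT and at 14.5 RPKM, within the range of Vldlr, in EED-/- libraries.

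The wider pathway was followed in 7 lists that hold 113 genes with the members, all of them tested. Of the 103 genes besides the members 21 were lower and 8 higher, or 28.2% called against 25.8% of all tested genes, and their median log2 fold change was -0.06 against -0.03 over all tested genes. Their share called was thus near the background. With the members included, the share called was 50% for the reelin core, whose 4 genes are all members. It was 42.9% for reelin processing and receptor turnover, 28% for downstream signalling and 25% each for the doublecortin and Cdk5 lists. Glia-guided migration had 47.8% called, and LIS1 and dynein 0%. Differences between the lists were not tested.

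Around the ligand and the receptors, 2 of 14 genes rose and 4 fell (median log2 fold change -0.01). Adamts3, a protease that cleaves and inactivates reelin, rose from 15.4 ± 0.739 to 27.1 ± 2.1 CPM (log2 fold change 0.81, adjusted p = 0.00194). Adamts5, a protease of the same family, rose from 7.5 ± 1.93 to 13 ± 1.58 CPM; its call was lost without WT replicate 3 or EED-/- replicate 2 or 3 (adjusted p 0.059 to 0.0743), which left 1 gene higher. Adamts2, which also cleaves reelin, fell from 28.6 ± 3.33 to 17.1 ± 0.862 CPM (log2 fold change -0.74, adjusted p = 0.0041), opposite to Adamts3. The proprotein convertase Furin fell 0.70 on the log2 scale. Socs7, part of the ubiquitin ligase that removes phosphorylated Dab1, fell from 211 ± 29.2 to 88.5 ± 2.9 CPM (log2 fold change -1.25, adjusted p = 0.000356).

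Downstream of Dab1, 2 of 25 genes rose and 5 fell (median log2 fold change -0.06). Dab2ip, a Ras GTPase-activating protein that binds Dab1, fell from 247 ± 43.6 to 108 ± 6.69 CPM (log2 fold change -1.2, adjusted p = 0.000834). Akt2, a kinase of the PI3-kinase pathway, fell from 175 ± 41 to 82.6 ± 10.1 CPM, and the PI3-kinase subunit Pik3r2 from 115 ± 22.3 to 61.8 ± 11.6 CPM. The microtubule protein tau, Mapt, fell from 633 ± 80.7 to 458 ± 14.3 CPM. Rapgef1, an exchange factor for the GTPase Rap1 and the remaining gene of the 5 (named after its values were seen), fell from 201 ± 23.5 to 148 ± 15.2 CPM. Neither Mapt nor Rapgef1 was called without WT replicate 1, WT replicate 3 or any 1 EED-/- replicate (adjusted p up to 0.104 and 0.154), which left 3 genes lower in each case. Under both the upper-quartile scaling and the plain library size 3 genes of the list were lower. Integrin beta 1, Itgb1, rose from 122 ± 20.8 to 180 ± 4.24 CPM, and the cofilin kinase Limk1 from 98.5 ± 7.61 to 135 ± 11.1 CPM. Both lost their call without EED-/- replicate 1 or 2, with adjusted p-values of 0.071 and 0.0561 for Itgb1 and 0.0897 and 0.0821 for Limk1, which left 0 higher. Limk1 also lost its call without WT replicate 2 or 3 (adjusted p = 0.0554 and 0.0705).

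In the doublecortin and tubulin list 3 of 16 genes fell and 1 rose (median log2 fold change -0.07). Besides Dcx, the third family member Dclk2 fell from 236 ± 20.6 to 104 ± 9.5 CPM (log2 fold change -1.19, adjusted p = 0.00038). The tubulin-binding Stmn2 fell from 718 ± 19.9 to 525 ± 62.5 CPM; its call was lost without WT replicate 3 or EED-/- replicate 2 or 3 (adjusted p 0.0752 to 0.111) and under both the upper-quartile scaling and the plain library size. The neuronal tubulin Tubb3 rose from 341 ± 49.7 to 475 ± 58.1 CPM, a call lost without WT replicate 2 or 3 or EED-/- replicate 1 or 2 (adjusted p 0.0939 to 0.157) that left 0 higher. Scaled by the upper quartile 3 genes of this list were higher, as they were when WT replicate 1 was left out, and 2 were higher without EED-/- replicate 3.

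Of 19 genes of LIS1 and cytoplasmic dynein edgeR called 0, with 1 higher and 1 lower gene before adjustment (p under 0.05). The count was 0 with limma-voom, and DESeq2 called Dynll1 higher and Dctn1 lower. With edgeR, Dynll1 was also called under the 3 other scalings and without mitochondrial genes, and Dctn1 without a filter on low counts. Dynll1, a dynein light chain, was at 87.7 ± 3.11 CPM in WT and 111 ± 13 CPM in EED-/- libraries (edgeR adjusted p = 0.0625; 0.0197 without EED-/- replicate 3). Dctn1, a dynactin subunit, was at 415 ± 87.8 and 295 ± 24.8 CPM (edgeR adjusted p = 0.0534; 0.0193 without WT replicate 2). Among 12 genes of the Cdk5 list 3 fell and 9 were not called (median log2 fold change -0.08). Cdkn1b, the cell cycle inhibitor p27 and a Cdk5 substrate, fell from 154 ± 11 to 52.3 ± 4.74 CPM (log2 fold change -1.55, adjusted p = 9.95e-05). The kinase Pak1 fell from 417 ± 33.5 to 242 ± 23.8 CPM. Brsk2, a kinase of neuronal polarity, fell from 194 ± 15.8 to 135 ± 8.8 CPM, a call lost without EED-/- replicate 3 (adjusted p = 0.053).

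The list of astrotactins and glia-guided migration had 8 of 23 genes lower and 3 higher (median log2 fold change 0.03), with Astn2 among the 8. Cntn2 (TAG-1), an adhesion molecule of premigratory granule cells, fell from 575 ± 66.9 to 160 ± 1.27 CPM (log2 fold change -1.85, adjusted p = 5.12e-05). Tiam1, an exchange factor for the GTPase Rac, fell from 241 ± 34.6 to 65.2 ± 3.3 CPM (log2 fold change -1.89). Plxna2, the semaphorin receptor through which Sema6a acts on migrating granule cells, fell from 163 ± 5.34 to 78.3 ± 6.68 CPM, and the netrin receptor Unc5c from 145 ± 27.8 to 61.9 ± 7.7 CPM. The other netrin receptor of the list, Dcc, rose from 18.1 ± 6.51 to 39.3 ± 3.29 CPM. The polarity protein Pard3 rose from 21.3 ± 1.74 to 29.8 ± 1.37 CPM and the neurotrophin Bdnf from 5.53 ± 1.96 to 10.4 ± 2.51 CPM. Without EED-/- replicate 1 the list had 5 lower and 0 higher genes, with adjusted p-values of 0.0514 for Dcc, 0.0528 for Pard3 and 0.121 for Bdnf. Pard3 also lost its call without EED-/- replicate 2 (adjusted p = 0.0594), and Bdnf without WT replicate 1 or 3 or EED-/- replicate 3 (adjusted p 0.0649 to 0.126).

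**Figure D5:**
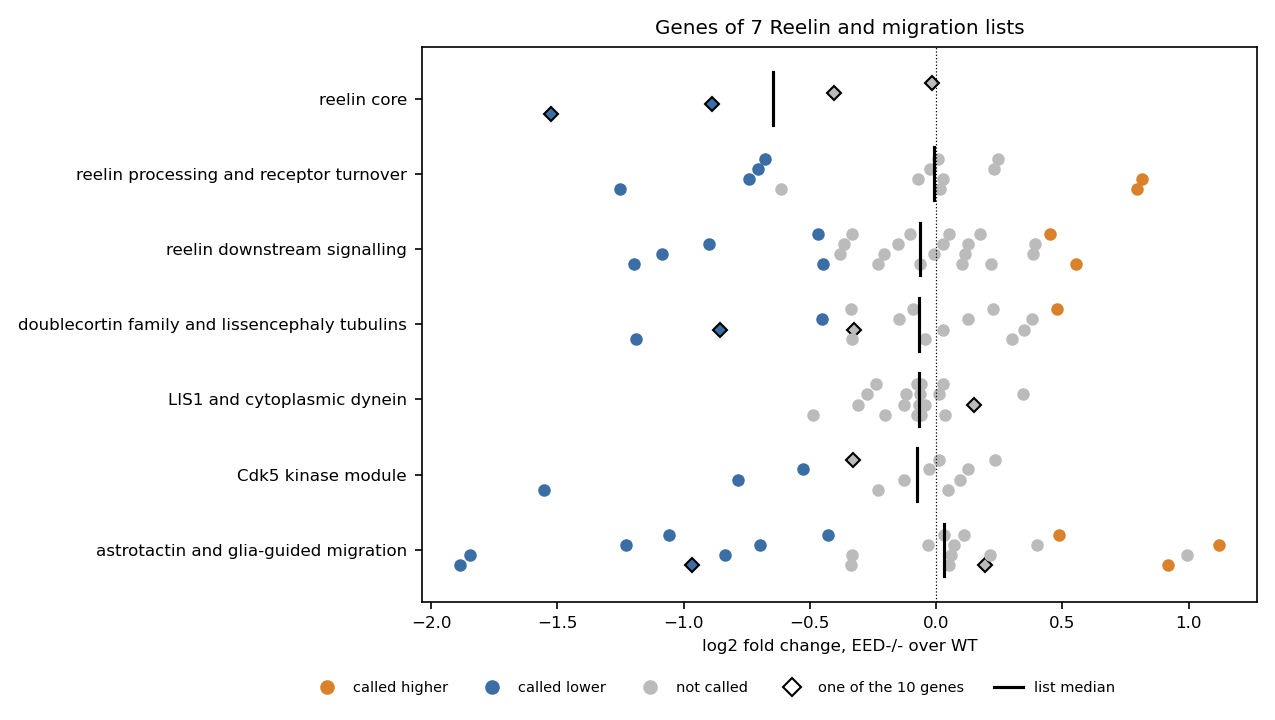
Log2 fold change of EED-/- over WT (x axis) of the tested genes of 7 pathway lists (rows), coloured by call at an adjusted p under 0.05, with the 10 genes as outlined diamonds and list medians as lines. The list medians besides the reelin core lie between -0.08 and 0.03, and the LIS1 and dynein list has no called gene.

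Markers of granule neurons moved with the genotypes. Of the 15 markers on that list all 15 were lower (median log2 fold change -2.77, range -4.2 to -2.17), against 14.1% of all tested genes. The list was chosen with earlier results of these data known. The summed level of the 15 was 6472 to 8144 CPM in WT and 831 to 1095 CPM in EED-/- libraries. Fat2, Zic1 and Cbln3, chosen by their mean over all 6 libraries, were at 1095 ± 236, 922 ± 46.9 and 786 ± 128 CPM in WT and 82.4 ± 26.2, 173 ± 20.4 and 42.7 ± 21.3 CPM in EED-/- libraries. None of the 10 genes, Reln included, had a log2 fold change as low as that of any of these 15 markers. The difference was not tested. In bulk RNA, fewer cells of a type and less RNA per cell cannot be told apart. Of 15 Purkinje cell markers 2 were lower and 13 were not called, with a summed level of 5736 to 6854 CPM in WT and 5635 to 7438 CPM in EED-/- libraries, and 0 values of any tested marker were at 0.

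Further cell types were checked in the same way, beside 14.1% of all tested genes called lower and 11.7% called higher. Inhibitory interneuron markers had 4 of 10 lower and 2 higher, at a summed 1282 to 1428 CPM in WT and 1237 to 1399 CPM in EED-/- libraries. The 9 tested markers of immature and migrating neurons had 4 lower and 2 higher, with sums of 911 to 1046 CPM in WT and 695 to 781 CPM in EED-/- libraries. Neurod1, which is also on the granule neuron list, fell from 441 ± 44.6 to 50.5 ± 12.9 CPM, while Nnat rose from 130 ± 15.5 to 329 ± 78.4 CPM. The sum of this list is therefore not separate from that of granule neurons. The 6 markers of Cajal-Retzius cells, the reelin-secreting neurons of the forebrain surface, had 3 lower and 2 higher; their sums were 481 to 582 CPM in WT and 218 to 253 CPM in EED-/- libraries. Calb2, which granule cells and unipolar brush cells also express, made up 399 ± 62 CPM in WT and 109 ± 18.8 CPM in EED-/- libraries. Of 10 markers of astrocytes and of Bergmann glia, whose fibres guide granule neurons, 4 were lower and 2 higher. Their sums were 4115 to 4437 CPM in WT and 3579 to 5141 CPM in EED-/- libraries, over genes that moved in opposite directions. Slc1a3 fell from 1202 ± 96.3 to 429 ± 17 CPM, and Gfap rose from 321 ± 33.7 to 716 ± 253 CPM. Slc1a2, at 1376 ± 133 and 1811 ± 488 CPM, was not called. The list pools both cell types, so its sum shows neither alone. Of 9 tested granule cell progenitor markers 3 were lower and 2 higher. For cerebellar nuclei the list had 5 of 8 higher, with sums of 1179 to 1324 and 1888 to 2289 CPM, and for oligodendrocyte progenitors 6 of 9 higher, with sums of 718 to 814 and 925 to 1305 CPM. Meningeal fibroblast markers were all 7 higher, with sums of 355 to 433 and 832 to 1137 CPM. Unipolar brush cell markers, Calb2 among them, had 2 of 6 lower, with sums of 470 to 604 and 210 to 245 CPM, and microglial markers had 5 of 6 higher, with sums of 142 to 150 and 253 to 286 CPM. Blood markers ran from 255 to 555 CPM in WT and from 355 to 1775 CPM in EED-/- libraries. The part of these cell types in the changes of the 10 genes was not tested.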

How the data were processed

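The deposited table holds estimated counts per gene for the 6 RNA-seq libraries, not whole (by more than 1e-06) in 22.5% to 23.6% of values. The submitters' processing notes list Salmon 1.1.0, Trimmomatic 0.36, MACS2, Bowtie2 2.4.1 and DESeq2 1.26.0, with the builds GRCm38 and mm10, and give no roles. The authors' deposited comparison gives for each gene the mean normalised count (a signal), the log2 fold change and its SE, the test score and the raw and adjusted p-value, in DESeq2's columns per the file headers; gene symbols came from it.

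Here the estimated counts were rounded, filtered with edgeR's filterByExpr, scaled by TMM and tested with edgeR 4.0.16 (R 4.3.3; glmQLFit, robust, and glmQLFTest), the model holding genotype alone. The adjustment was by Benjamini-Hochberg over all tested genes, two-sided, with a threshold of 0.05. SEs are the absolute log2 fold change over the square root of F. The procedure was tested on simulated data. Positions and lengths are from GENCODE M21, with the same gene version for 9 of the 10 members, and promoters from RefSeq (GRCm38.p6). Alternatives were other scalings, no filter, DESeq2 1.42.0, limma-voom 3.58.1, a replicate block, removal of mitochondrial genes and leaving out each library. The exon union as gene length was added after seeing the data.

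The members and lists were chosen with earlier results of these data known. Named besides the members and Eed were up to 4 called genes per pathway list and direction with the smallest adjusted p, and up to 3 markers per list with the highest mean CPM. Dynll1, Dctn1 and Rapgef1 were named after their values were seen, Calb2 by the marker rule, and 1 gene that met the rule is not reported here. No libraries were merged, since those of 1 genotype differed beyond sampling noise, with 8.36 to 55.2 as the chi-square over its degrees of freedom.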

Additional observations from a re-analysis of the deposited data

How the results depend on the processing

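The calls of Reln, Lrp8, Astn2 and Dcx held in all 14 alternatives, with log2 fold changes of -1.59 to -1.36, -0.89 to -0.77, -1.1 to -0.73 and -0.91 to -0.70, and the largest adjusted p was 0.0255. Of 140 values for the 10 members 131 kept direction and side of the threshold. Vldlr gained a call without WT replicate 1. Dab1 changed sign in the other 8, from -0.02 to 0.013 with RLE size factors, 0.10 scaled by the upper quartile, 0.083 by plain library size, 0.0086 without a filter, 0.0077 with DESeq2 and 0.018 without mitochondrial genes, and also without WT replicate 2 or EED-/- replicate 3, with a range of -0.031 to 0.055 over all 6 libraries left out singly; the cause was not tested. The upper quartile and the plain library size moved the median of all genes by 0.117 and 0.0999 (log2) and the higher share of calls from 45.5% to 61.3% and 58.6%. Of 392 values for the 28 other pathway genes that were followed singly, 49 lost and 9 gained a call, and none changed sign. The replicate numbers did not pair the libraries (correlations of same-numbered deviations 0.0276, -0.233 and -0.00125). With the replicate block 4 members were lower and 0 higher, as without it, and over all genes 1505 were higher and 1706 lower against 2125 and 2544. The block ended the calls of Limk1, Mapt, Rapgef1, Stmn2, Tubb3, Pard3 and Bdnf among the genes named; only 1 of 6 libraries correlated best with its own number. Mitochondrial transcripts took 3.21% to 6.37% of counts in WT and 6.45% to 8.04% in EED-/- libraries. With 1255 or more counts per library, counting error is small for the members, and the spread between 3 libraries limits the intervals.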
